A study of Mus musculus with 30 samples.

Results

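The RNA levels of 7 subunits of the GABA-A receptor were followed in the hippocampus of mice fed methylmercury (MeHg): Gabra2, Gabra3, Gabra4, Gabra5, Gabrb1, Gabrb2 and Gabrd. These genes were taken by name, by a rule that uses no measured value, although earlier results of these data were known when the family was chosen. Each symbol was found once among the 21412 genes of the expression table through its Ensembl identifier. All 7 passed the filter on low values. RNA sequencing had been done on the hippocampus of 30 male BALB/c mice in 6 groups of 5, with 1 library per mouse. Without added selenium, the Ctr mice received an unspiked feed, the LD mice a low dose of 0.28 mg per kg feed and the HD mice a high dose of 5 mg per kg feed, each for 11 weeks. The Se_Ctr, Se_LD and Se_HD mice carry the same dose names together with selenium. Their selenium level, mercury level and feeding time are not given in the sources used here. The mice were bought within weeks of birth and put on the diets after a few days of acclimatization, per the methods of the study for the groups without selenium. Mice are named below by the library number in their title, and where nothing else ties replicates together, the p-values measure the spread between these mice.

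GABA-A receptors are chloride channels opened by gamma-aminobutyric acid (GABA), the main inhibitory transmitter of the adult brain. Each channel is a ring of 5 subunits, usually alpha and beta subunits joined by a gamma or a delta subunit. The alpha subunit sets much of the pharmacology and the place of the receptor: alpha2 (Gabra2) is prominent at synapses on the axon initial segment of pyramidal cells, alpha5 (Gabra5) mostly lies outside synapses on pyramidal cells, and alpha4 (Gabra4) pairs with delta (Gabrd) in extrasynaptic receptors of dentate granule cells that carry tonic inhibition and respond to neurosteroids. Gabrb1 and Gabrb2 encode beta subunits, which help form the GABA site and take the channel to the membrane.

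In the NCBIM37 build used by the deposited table, 3 of the genes lie together on chromosome 5: Gabra2 (5:71352296-71487088, minus strand), Gabra4 (5:71960973-72049547, minus strand) and Gabrb1 (5:72091171-72529628, plus strand). Gabra5 lies at 7:64663060-64765379 (minus strand), Gabrb2 at 11:42233259-42446092 (plus strand), Gabrd at 4:154759089-154772221 (minus strand) and Gabra3 at X:69678020-69902187 (minus strand). The exons of the 7 genes add up to between 2392 bases (Gabra2) and 9922 bases (Gabrb2). No word of 31 bases was shared between the annotated transcripts of any 2 of them, so reads of these genes are unlikely to be exchanged between them. Gabra5 shares 118 exon bases with Gm9962, an antisense gene with a mean of 4.03 normalized counts. Whether the counting used the strand is not given in the sources used here.

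Gabra4 and Gabra5 had the most similar profile of any 2 of the 7 genes over the 30 mice (Pearson r = 0.628 of log2 values, as a description of libraries that share the same normalization), so the 250 bases before their RefSeq start sites are shown. Both windows are from the GRCm38.p6 build, Gabra4 from chr5:71658309-71658558 and Gabra5 from chr7:57510060-57510309, both on the minus strand and read 5′ to 3′. Capitals mark matches, on either strand, to the CCAAT box (CCAAT) and the GC box (GGGCGG).
Gabra4: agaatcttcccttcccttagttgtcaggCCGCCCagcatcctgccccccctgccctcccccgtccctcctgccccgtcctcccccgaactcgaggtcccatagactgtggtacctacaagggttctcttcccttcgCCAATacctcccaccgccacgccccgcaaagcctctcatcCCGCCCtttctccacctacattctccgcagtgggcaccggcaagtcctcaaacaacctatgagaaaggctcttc
Gabra5: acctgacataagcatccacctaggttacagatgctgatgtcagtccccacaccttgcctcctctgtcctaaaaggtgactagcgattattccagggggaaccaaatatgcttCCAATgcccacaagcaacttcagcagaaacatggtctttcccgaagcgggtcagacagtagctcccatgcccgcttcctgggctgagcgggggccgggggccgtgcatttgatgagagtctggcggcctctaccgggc
Each window held 1 CCAAT match, which 33.8% of the 32851 RefSeq windows of this length also held. Gabra4 had 2 GC box matches and Gabra5 had 0, against 32.7% of windows with at least 1. Neither held the letters TATAAA or TGACGTCA, found in 12.4% and 1.55% of windows. RefSeq windows were at hand for 6 of the 7 genes, not for Gabrd.

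Between 5768208 and 11510521 reads fell on genes per library (median 9351470), and the Ctr libraries were the shallowest group (median 7119788). Markers of hippocampal neurons were present in every group, those of dentate granule cells (5 genes) summing to between 1104 and 2878 normalized counts per mouse. Markers of microglia and astrocytes ran higher in HD than in Ctr mice. The 8 microglial markers summed to 2308 to 2594 in Ctr mice, 2886 to 6659 in HD mice, 2211 to 2815 in Se_Ctr mice and 2404 to 2847 in Se_HD mice. The 6 astrocyte markers summed to 43970 to 54510, 53300 to 87620, 43020 to 49780 and 45790 to 47790 in the same groups. HD library 21 held the highest microglial and astrocyte sums of its group and the lowest sum of 5 neuronal markers of all 6 groups, 35500 normalized counts. No marker of neurons, dentate granule cells, oligodendrocytes, endothelium, choroid plexus, thalamus, striatum, cerebral cortex or red blood cells was called in HD against Ctr mice. Neither was one of 4 markers of CA3 pyramidal cells. Of 4 markers of CA1 pyramidal cells, Mpped1 was called lower at -0.40 (SE 0.13, limma adjusted p = 0.266) and 3 of 4 lay below 0, their sum running from 2485 to 3691 in HD mice and from 2991 to 4277 in Ctr mice. Choroid plexus markers had a median log2 difference of 1.49 there without a call. In bulk tissue, fewer cells of a type and less RNA per cell cannot be told apart.

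Per kb of exon, Gabra2 was the most abundant of the 7 (mean 795 normalized counts per kb over 30 mice) and higher than the next gene in 30 of 30 mice. Gabra5 (349), Gabrb2 (292), Gabra4 (279) and Gabra3 (221) followed within a narrow range, and the order of neighbours held in 24, 18 and 27 of 30 mice. At the exon lengths used, Gabrb2 and Gabra4 therefore did not differ in a fixed direction from mouse to mouse. Gabrb1 (58.0) and Gabrd (45.2) were far lower, with Gabrb1 above Gabrd in 24 of 30 mice. These values divide by all annotated exon bases, 2875 for Gabrd and 9922 for Gabrb2. The transcripts compared for shared words held only 1891 words of 31 bases for Gabrd and 7661 for Gabrb2. With shorter lengths both genes would lie higher per kb. The order of Gabrb1 and Gabrd, and that of Gabra5 and Gabrb2, can therefore depend on the length used and was not recomputed. Gabrd was also the most variable, with a coefficient of variation of 28.0% over all mice against 13.8% to 19.1% for the other 6 genes.

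**Figure D1:**
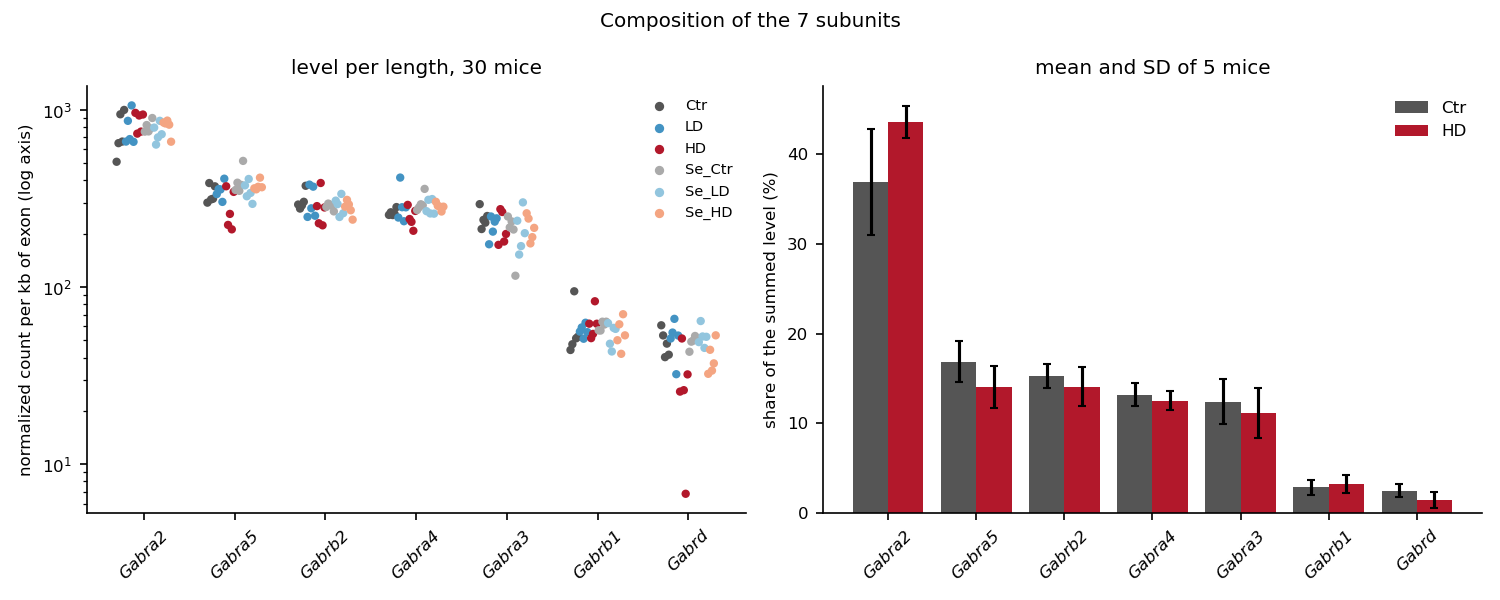
Levels of the 7 subunits per kb of exon in each of the 30 mice (left, log axis, coloured by group) and the share of each subunit in their summed level in Ctr and HD mice (right, bars are means and error bars SD of 5 mice). Gabra2 makes up 36.9% of the sum in Ctr and 43.5% in HD mice, while Gabrd makes up 2.49% and 1.43%, the HD mice running from 0.408% to 2.83% and the Ctr mice from 1.75% to 3.46%.

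The first question was whether MeHg without added selenium changed these subunits. Gabrd was the 1 gene called among the 7 in HD against Ctr mice, where a call needed an unadjusted p under 0.05 both in the F test over Ctr, LD and HD and in the contrast. The same rule called 5.09% of the 20031 genes tested, so a count of 1 in 7 says nothing about the subunits as a group. None of the 7 reached an adjusted p under 0.05 (0.13% of all genes did).

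Gabrd, the delta subunit, measured 175, 153, 116, 138 and 119 normalized counts in Ctr libraries 1, 7, 13, 19 and 25. In HD libraries 3, 9, 15, 21 and 27 it measured 73.9, 147, 75.3, 19.6 and 92.5. In 4 of the 5 HD mice Gabrd lay below every Ctr mouse, whereas HD library 9 lay inside the Ctr range. The mean was 81.8 ± 45.8 in HD mice against 140 ± 24.6 in Ctr mice (SD, n = 5 each). On the log2(normalized count + 1) scale the difference was -1.0 (SE 0.34), a fold of 0.499, with a limma unadjusted p of 0.00758 and a limma adjusted p of 0.319. The exact two-sided permutation test of 5 against 5 mice gave p = 0.0317, where 0.00794 is the smallest value this design allows. The size of the difference rested partly on HD library 21, where Gabrd had only 24 reads. Without this mouse it was -0.57 and still called, and without HD library 9 it was -1.28. Within each of the 5 sets of 6 consecutive library numbers, which hold 1 mouse of each group, the HD mouse was below the Ctr mouse, by log2 differences of -1.23, -0.06, -0.61, -2.76 and -0.37.

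Microglial, astrocyte and interneuron markers differed beside this result. Of 5 general neuronal markers 0 were called and 4 lay below 0 (median log2 difference -0.15), and of 7 interneuron markers 2, Pvalb and Gad1, were called lower and 6 lay below 0 (median -0.30). All 8 microglial markers and 3 of the 6 astrocyte markers were called higher and none lower in the HD group than in the Ctr group, and HD library 21, lowest in Gabrd, was highest in both sums. Of the 5 dentate granule cell markers none was called, with a median log2 difference of 0.05, and the 5 HD mice covered nearly the same range of their sum (1104 to 1934) as the Ctr mice (1140 to 1924). Their differences went both ways, from -0.30 for Dsp to 0.32 for C1ql2, with Prox1, the transcription factor that marks these cells, at 0.05 (SE 0.22). Prox1 is the largest term of the sum. HD library 21 had the lowest Dsp (175.5 normalized counts), Lct (158) and Tdo2 (17.1) of all 30 mice beside its lowest Gabrd, with Prox1 at 921 and C1ql2 at 108. The same mouse had the highest Npy of the 30 (925 against 110 to 305.5 in the others) and the lowest Pvalb (151), Sst (174) and Slc32a1 (268.5). Thalamus markers (5 genes), a sign of tissue next to the hippocampus, were not called, but their sum was lowest in HD library 21 (565) and highest in HD library 9 (1297) among HD mice, the mice with the lowest and highest Gabrd. Among Ctr mice it was lowest in library 13 (609) and highest in library 1 (1082), again those with the lowest and highest Gabrd. The other groups did not repeat this. In LD mice the sum was lowest in library 2 and highest in library 8, but Gabrd in libraries 20 and 14. In Se_HD mice the sum was lowest in library 12 and highest in library 18, but Gabrd in libraries 6 and 30. Only the lowest mouse coincided in the Se_Ctr group (library 4) and only the highest in the Se_LD group (library 11). The part of cell composition or dissection in the Gabrd difference was not tested.

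**Figure D2:**
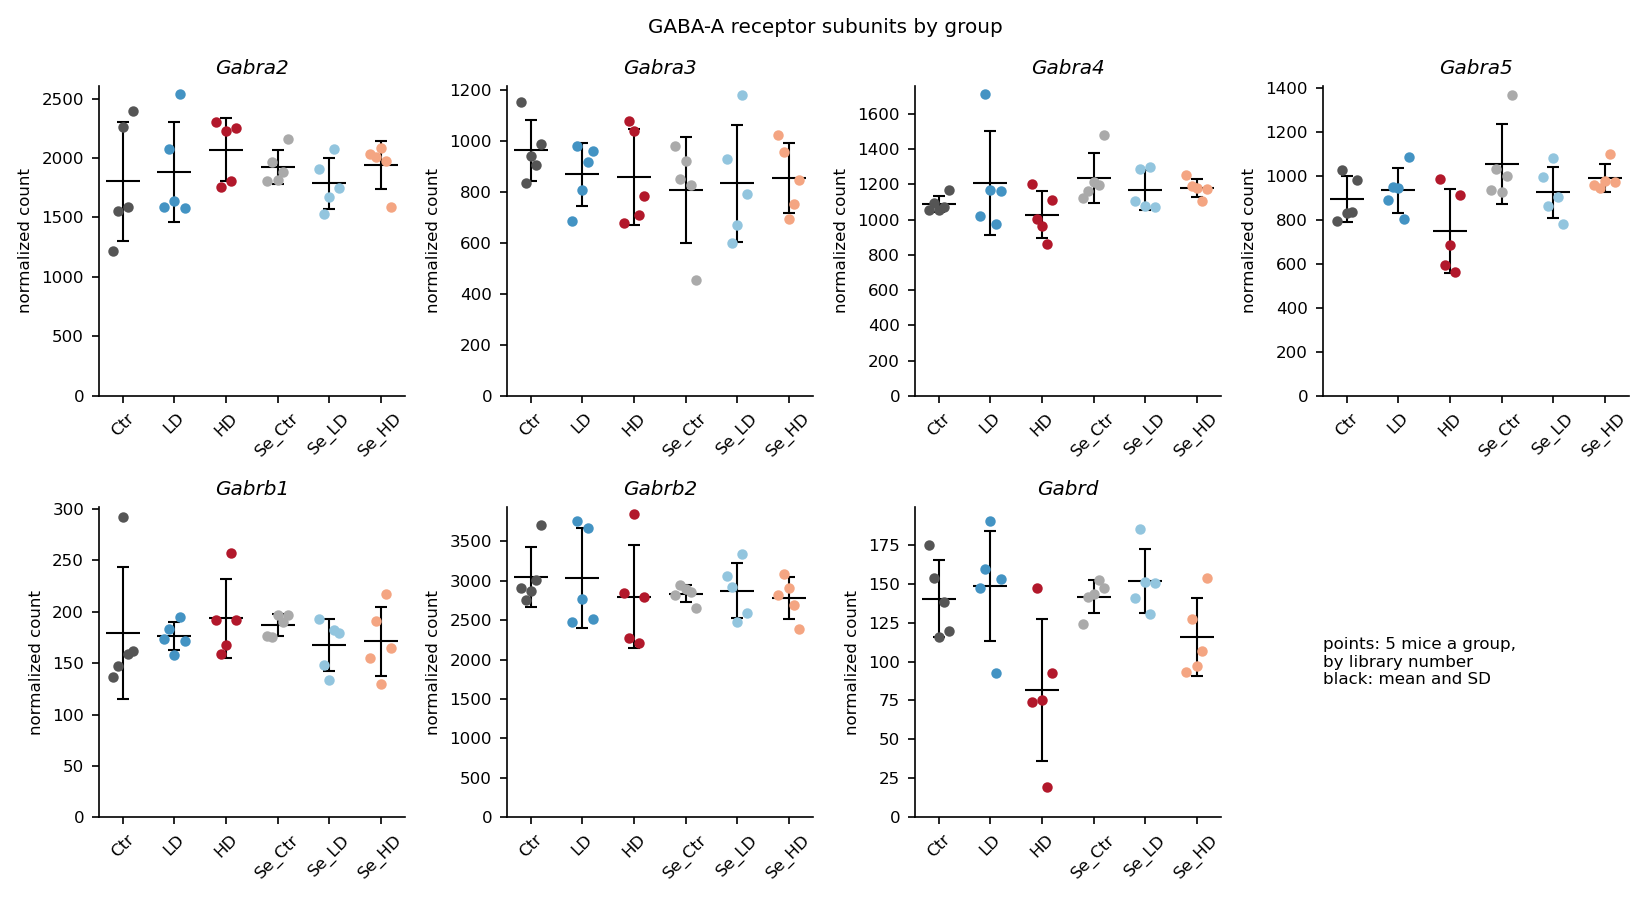
Normalized counts of each subunit in every mouse by group (points, 5 mice a group in order of library number; black marks, mean and SD; axes start at 0). Gabrd runs from 19.6 to 147 in HD mice against 116 to 175 in Ctr mice, and Gabra5 from 562 to 985 in HD mice against 946 to 1101 in Se_HD mice.

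Gabra5 was the second lowest of the 7 in its HD against Ctr difference. It measured 796, 1027, 830, 837 and 984 normalized counts in Ctr libraries 1, 7, 13, 19 and 25, and 985, 596, 687, 562 and 915 in HD libraries 3, 9, 15, 21 and 27. HD mice split into 3 below every Ctr mouse and 2 within the Ctr range, so the groups overlapped. The log2 difference of -0.29 (SE 0.14) was not called, with a limma unadjusted p of 0.0524 and a limma adjusted p of 0.609, and the exact permutation p was 0.159. It was called when the library set was a covariate, when all 30 libraries were in the fit, and without HD library 3, HD library 27 or Ctr library 1, where the difference ran up to -0.39.

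For the other 5 subunits the differences between HD and Ctr mice were smaller than 0.25 on the log2 scale and none was called. Gabra2 lay at 0.23 (SE 0.17), Gabra3 at -0.19 (SE 0.14) and Gabra4 at -0.09 (SE 0.13). Gabra4, the usual partner of delta, averaged 1028 ± 133 normalized counts in HD and 1088 ± 47.7 in Ctr mice (SD, n = 5 each). Gabrb1 and Gabrb2 differed by 0.15 (SE 0.17) and -0.15 (SE 0.15). Leaving out 1 mouse moved Gabrb1 between 0.04 and 0.34 and Gabrb2 between -0.27 and -0.07, never called. Exact permutation p-values for these 5 genes ran from 0.238 to 0.5. A Gabrb1 value of 293 in Ctr library 13, the shallowest library, against 136 to 162 in the other Ctr mice, widened the spread of this control group.

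The low dose gave no call among the 7 genes, in LD against Ctr mice (1.46% of genes called, 0% past the adjusted threshold). Gabrd averaged 149 ± 35.4 in LD mice, with values of 147, 159, 190, 92.7 and 153 in libraries 2, 8, 14, 20 and 26. The groups overlapped, library 14 lying above and library 20 below every Ctr mouse. Fold changes of the 7 genes lay between -0.15 and 0.12 on the log2 scale. In HD against LD mice, 2 of the 7 were called, both lower in HD mice, with 4.49% of all genes called and 0.0499% past the adjusted threshold. Gabrd differed by -1.07 (SE 0.34, limma adjusted p = 0.371) and Gabra5 by -0.35 (SE 0.14, limma adjusted p = 0.571). The exact permutation p was 0.0238 for Gabrd and 0.111 for Gabra5, and the Gabra5 call was lost in 7 of 10 fits that left out 1 mouse, staying only without LD library 20, HD library 3 or HD library 27.

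**Figure D3:**
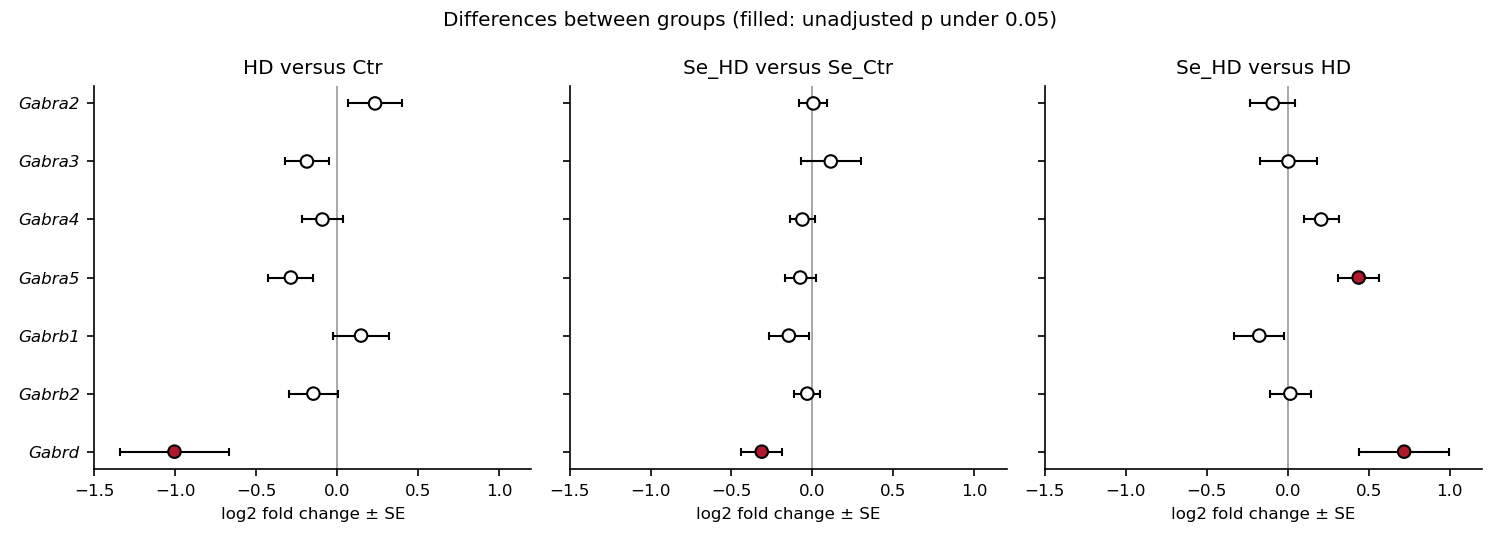
Log2 fold changes with standard errors of the 7 subunits in HD against Ctr, Se_HD against Se_Ctr and Se_HD against HD mice; filled points have an unadjusted p under 0.05. Gabrd is at -1.0 and -0.31 in the first panels and at 0.72 in the last, where Gabra5 is at 0.44.

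The next question was how the subunits responded to MeHg in mice given selenium. In Se_HD against Se_Ctr mice 1 of 7 genes was called, again Gabrd and again lower, beside 2.06% of the 19679 genes tested and 0% past the adjusted threshold. Gabrd measured 124, 141, 143.5, 152 and 147 normalized counts in Se_Ctr libraries 4, 10, 16, 22 and 28. In Se_HD libraries 6, 12, 18, 24 and 30 it measured 93.2, 127, 97.1, 107 and 154. In 3 of the 5 Se_HD mice it was below every Se_Ctr mouse and in 1, library 30, above every Se_Ctr mouse. The log2 difference was -0.31 (SE 0.13), with a limma unadjusted p of 0.0228 and a limma adjusted p of 1. The exact permutation test gave p = 0.0873, and with all 30 libraries in the fit the call was lost at -0.31 (unadjusted p = 0.266). It was also lost without Se_HD library 18, Se_HD library 6 or Se_Ctr library 22. Beside it, all 5 dentate granule cell markers lay below 0 (median log2 difference -0.13), with 0 called. So did all 5 neuronal markers (median -0.08) and 3 of 4 CA1 pyramidal markers (median -0.21), again with 0 called. Of the microglial markers 0 of 8 were called, and of the astrocyte markers 1 of 6, Gfap, higher. The part of these cell types in the Gabrd difference was not tested.

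The other 6 subunits lay between -0.15 (Gabrb1) and 0.11 (Gabra3) in this comparison, and none was called. Gabra5 differed by -0.08 (SE 0.10), Gabra4 by -0.06 (SE 0.08), Gabra2 by 0.01 (SE 0.09) and Gabrb2 by -0.03 (SE 0.08). The spread between mice also differed between groups, without a test. The coefficient of variation was lower in Se_HD than in HD mice for 7 of 7 genes, but by unequal amounts. It was 6.33% against 25.4% for Gabra5, 10.4% against 12.8% for Gabra2 and nearly equal for Gabrb1, 19.57% against 19.78%. Between Se_Ctr and Ctr mice it went both ways, lower in Se_Ctr for 4 genes (3.85% against 12.4% for Gabrb2) and higher for 3 (25.5% against 12.4% for Gabra3). In Se_LD against Se_Ctr mice 0 of 7 genes were called (1.46% of genes). In Se_HD against Se_LD mice 1 was called (2.47% of genes), Gabrd at -0.40 (SE 0.13, limma adjusted p = 0.874). The Se_LD mice had 141, 185, 151, 130 and 151 normalized counts of Gabrd in libraries 5, 11, 17, 23 and 29, the highest mean of the 6 groups (152 ± 20.5), and the exact permutation p was 0.0476. That call was absent with all 30 libraries in the fit and without Se_HD library 6. Thalamus markers moved with the Se_LD group: 4 of 5 were called higher in Se_LD than in Se_Ctr mice (Plekhg1, Ramp3, Tcf7l2 and Lef1, median 0.58), and their sum ran from 731 to 2296 in Se_LD mice against 618 to 915 in Se_HD mice. The highest sum was in library 11, which also had the highest Gabrd of its group. Without this mouse the Gabrd difference was -0.33 and still called. The part of these markers in it was not tested.

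Groups of the same dose name were then compared across the diets, where a call needed the contrast alone at an unadjusted p under 0.05. Se_HD against HD mice gave 2 calls among the 7 genes, both higher in Se_HD mice, beside 8.38% of the 21383 genes tested and 0.327% past the adjusted threshold. Gabra5 measured 959, 946, 978, 1101 and 972 normalized counts in Se_HD libraries 6, 12, 18, 24 and 30, against 562 to 985 in HD mice. Library 3 alone among the HD mice reached into the Se_HD range. The log2 difference was 0.44 (SE 0.13), with a limma unadjusted p of 0.00139, a limma adjusted p of 0.175 and an exact permutation p of 0.0397. Gabra5 kept this call in each of 12 alternative analyses and each of 10 fits without 1 mouse, where the difference ran from 0.34 to 0.55. Gabrd differed by 0.72 (SE 0.28, limma adjusted p = 0.425, exact permutation p = 0.151), and without HD library 21 by only 0.28, no longer called. Gabra4 differed by 0.21 (SE 0.11) and was not called (limma unadjusted p = 0.0632, exact permutation p = 0.0714), although the Se_HD mouse was above the HD mouse in all 5 library sets. It was called in 1 of 12 alternatives, with only these groups fitted, and without HD library 3 or HD library 27. Microglial markers were called lower here for 7 of 8 genes and astrocyte markers for 4 of 6, none higher, with all 8 and all 6 below 0. Of the 7 interneuron markers Gad1 was called higher and Npy lower (-0.61, SE 0.28). The size of the Npy difference rested largely on HD library 21. It held 925 normalized counts of Npy, against 171 to 218 in the other HD mice and 163 to 210 in Se_HD mice. Of the 4 CA1 pyramidal markers 2 were called higher, Mpped1 at 0.28 (SE 0.13) and Fibcd1 at 0.40 (SE 0.20), and their sum ran from 2860 to 3973 in Se_HD mice. The part of these cell types in the subunit differences was not tested.

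**Figure D4:**
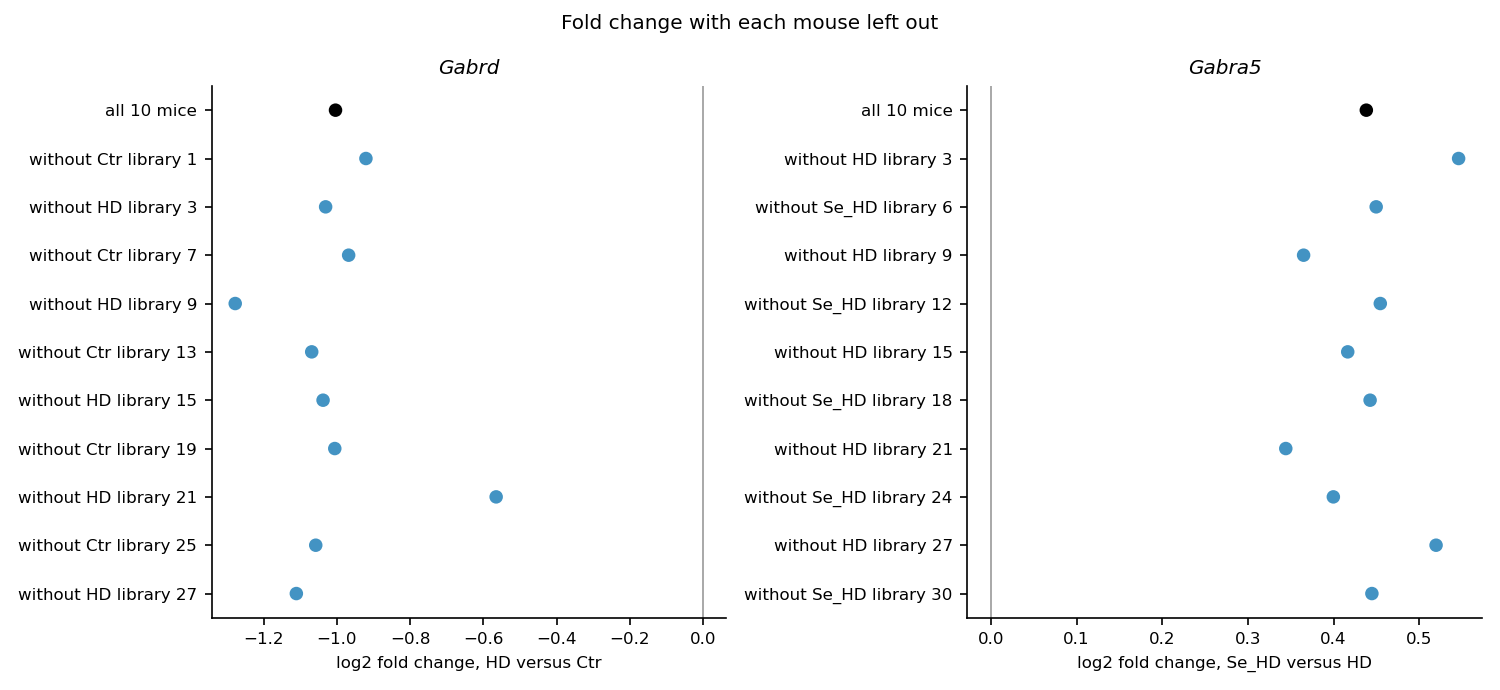
Log2 fold change of Gabrd in HD against Ctr mice (left) and of Gabra5 in Se_HD against HD mice (right) with all 10 mice (black) and with each mouse left out in turn (blue). Gabrd stays between -1.28 and -0.57, the smallest size being without HD library 21, and Gabra5 between 0.34 and 0.55.

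Between the control groups, Se_Ctr against Ctr mice, 0 of the 7 genes were called (4% of genes called). Gabra5 lay at 0.23 (SE 0.13), Gabra4 at 0.18 (SE 0.11) and Gabra3 at -0.30 (SE 0.17). Gabra4 had an exact permutation p of 0.0238 here against a limma unadjusted p of 0.108. Part of these differences came from Se_Ctr library 28, which had the highest Gabra4 (1480) and Gabra5 (1369) of its group and the lowest Gabra3 (455) of all 30 mice. Without it the differences of Gabra4 and Gabra5 were 0.11 and 0.13, and that of Gabra3 was -0.10. The same mouse had the highest sum of dentate granule cell markers, 2878. Se_LD against LD mice gave 0 calls (2.86% of genes).

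Whether selenium altered the response to MeHg was tested as an interaction. For the high dose 0 of 7 genes were called (4.77% of genes, 0% past the adjusted threshold), and for the low dose also 0 (3.75% of genes). Gabrd had an interaction of 0.69 (SE 0.39, limma unadjusted p = 0.0865, adjusted p = 0.997), which shrank to 0.25 without HD library 21 and grew to 0.96, then called, without HD library 9. Gabra5 had an interaction of 0.21 (SE 0.18). The lower Gabrd in HD than in Ctr mice and its smaller difference on selenium are therefore not shown to differ from each other.

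Expressed as shares of the summed level per kb, with the same exon lengths, the mix of the 7 subunits was compared in the same mice. In HD against Ctr mice 0 of 7 shares had an exact permutation p under 0.05. The share of Gabra2 was 43.5% ± 1.77 in HD and 36.9% ± 5.94 in Ctr mice (SD, n = 5 each, exact p = 0.0556). The share of Gabra5 was 14.1% ± 2.36 against 16.9% ± 2.27 (exact p = 0.0952) and that of Gabrd 1.43% ± 0.88 against 2.49% ± 0.71 (exact p = 0.0714). Shares of one sum move against each other, so these 3 values are not independent. In Se_HD against Se_Ctr mice the shares differed by at most 0.96 percentage points, that of Gabra2, and again 0 of 7 had an exact p under 0.05. In Se_HD against HD mice, a comparison of shares that was not planned and not recomputed under the alternatives, 3 of 7 had an unadjusted exact p under 0.05. The share of Gabra2 was 39.2% ± 2.46 in Se_HD against 43.5% ± 1.77 in HD mice (exact p = 0.0159), that of Gabra5 18.2% ± 1.52 against 14.1% ± 2.36 (exact p = 0.0238) and that of Gabra4 13.9% ± 0.87 against 12.5% ± 1.05 (exact p = 0.0397).

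The genes whose log2 profile over the 30 mice was most like that of each subunit were taken from 9273 genes whose normalized counts averaged 100 or more. For Gabra5 they were Chn1 (r = 0.914), 2510003E04Rik (0.899) and Ptk2b (0.889), Chn1 encoding a Rac regulator of neurons and Ptk2b a calcium-responsive tyrosine kinase. For Gabrd they were Osbpl1a (0.822), Slc12a5 (0.815) and Rgs11 (0.812), where Slc12a5 is the neuronal potassium chloride exporter that keeps the chloride gradient used by GABA-A receptors. Gabrb2 was closest to Ttbk2 (0.895), Ppargc1a (0.885) and Csrnp3 (0.873), and Gabra2 to Cpd (0.865), Pcdh19 (0.855) and C77370 (0.849). Gabra3 was closest to Rab3b (0.836), Gabra4 to Vma21 (0.807) and Gabrb1 to Macf1 (0.745). No subunit was among the 3 closest genes of another. Gabra4 and its head-to-head neighbour Gabrb1 had r = -0.13, and Gabra2 and Gabrb2 had r = 0.51. Gabrd had r = 0.469 with Gabra4, 0.478 with Gabra5, -0.39 with Gabra2 and -0.47 with Gabrb1. All these values describe 30 libraries that share groups, normalization and tissue composition.

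The wider GABA system was described with lists of genes. Of 10 other tested genes for GABA-A or GABA-rho subunits, 2 were called lower and 0 higher in the HD group compared with Ctr, at a median log2 difference of -0.20 beside 0.01 for all genes. Of all 11 such genes in the data 6 averaged below 10 normalized counts, so the median rests in large part on genes near the floor. LD against Ctr mice, with the same Ctr mice, had 8 of 10 below 0 at a median of -0.15 and 0 called. With 5.09% of all genes called in HD against Ctr mice, the count of 2 is small and it was not stable: it was 1 to 3 over the alternatives, 1 without HD library 9, HD library 21, Ctr library 19 or Ctr library 25, and 4 without HD library 27. Of 19 genes for anchoring, assembly and trafficking of the receptor, 0 were called, at a median of -0.06. The 4 of them with the lowest p were Gabarap at 0.15, Clptm1 at -0.15, Plcl2 at -0.17 and Shisa7 at -0.15. Gabarap encodes a receptor-binding adaptor and Clptm1 an assembly factor that holds subunits in the endoplasmic reticulum. None of 4 genes of the GABA-B receptor was called, Kctd16 being at -0.53 (SE 0.30) and Gabbr2 at -0.14 (SE 0.11). Leaving out 1 mouse moved Kctd16 between -0.71 and -0.26 and Gabbr2 between -0.19 and -0.02.

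Of 8 genes for GABA synthesis, vesicle loading, uptake and breakdown, 1 was called in HD against Ctr mice and all 8 lay below 0, at a median of -0.17. All 8 also lay below 0 in LD against the same Ctr mice, at a median of -0.07 and with 0 called. The called gene was Gad1, the enzyme that makes most GABA, which averaged 2006 ± 165 normalized counts in HD and 2748 ± 197 in Ctr mice, a log2 difference of -0.45 (SE 0.10, limma adjusted p = 0.0695). Slc32a1, the vesicular GABA transporter, lay at -0.30 (SE 0.19) and Aldh5a1, which degrades GABA further, at -0.16 (SE 0.11), neither called. Of 5 genes of the chloride gradient 0 were called, Slc12a5 being at -0.28 (SE 0.13, limma unadjusted p = 0.0383, adjusted p = 0.558), short of a call through the F test alone and called in 2 of 14 alternatives, and the chloride channel Clcn2 at -0.14 (SE 0.11).

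The same lists were read in Se_HD against HD mice, where 8.38% of all genes were called and which shares its 5 HD mice with the comparison above, so that opposite signs in both are no separate evidence. Of 11 other subunits 3 were called higher and 0 lower, and of 19 anchoring and trafficking genes 3 were higher and 0 lower: Nsf at 0.24, Shisa7 at 0.28 and Gphn, the gephyrin scaffold of inhibitory synapses, at 0.17. Without 1 mouse each count ran from 1 to 4, being 1 for the subunits without HD library 9 or Se_HD library 12 and 1 for the anchoring genes without Se_HD library 6 or Se_HD library 24. Gad1 lay 0.42 higher (SE 0.08, limma adjusted p = 0.016). Slc12a5 lay 0.25 higher (SE 0.10, limma adjusted p = 0.465), the 1 call among 5 chloride genes. Without HD library 21 Slc12a5 was at 0.11 and not called. On selenium, in Se_HD against Se_Ctr mice, 0 genes of these 5 lists were called in either direction.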

How the data were processed

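Single-end reads were trimmed with Trim Galore 0.4.2, mapped with HISAT2 and counted with featureCounts on NCBIM37 annotation, per the labels and the study's methods. The authors deposited a signal per gene: reads divided by DESeq2 size factors over 30 libraries. All values (100%) came out as whole reads within 0.01, and the columns not matched to a sample numbered 0. Symbols came from GENCODE vM1.

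Genes summing to 10 or more normalized counts per fit were kept, log2 transformed with a pseudocount of 1 and fitted with limma 3.58.1 (trend, 1 coefficient per group) in R 4.3.3: Ctr, LD and HD together, the selenium groups together, and all 30 libraries across diets. P-values were adjusted by Benjamini-Hochberg over all genes tested. Alternatives used edgeR 4.0.16 and DESeq2 1.42.0 on recovered reads; in HD against Ctr, edgeR called 1172 genes (45 adjusted), DESeq2 1091 (196) and limma 1019 (26). From each list, up to 4 genes with the lowest p in HD against Ctr and a mean of at least 10 were named; other subunits are not reported singly here, and genes of the Se_HD against HD lists were named after their values were seen. Members and lists were chosen with earlier results of these data known.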

Additional observations from a re-analysis of the deposited data

Results flagged for a closer look

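In 42 sets of 5 values (7 genes in 6 groups), 7 held 1 mouse far from the others, its gap to the nearest mouse taking more than 0.71 of the range. About 1 in 20 sets, here 2.1, would do so by chance. Se_Ctr library 28 stood above its group in Gabra4 (1480 normalized counts, gap 0.754 of the range) and in Gabra5 (1369, gap 0.765). Ctr library 13 stood high in Gabrb1 (293, gap 0.835) and Ctr library 25 in Gabrb2 (3705, gap 0.733). LD library 8, which also held the highest thalamus marker sum of the 30 mice (2301), stood high in Gabra4 (1715, gap 0.739) and Se_HD library 24 in Gabra5 (1101, gap 0.795). Se_HD library 30 was low in Gabra2 (1584, gap 0.784). Gabrd gave no such mouse in any group, HD library 21 included.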

How the results depend on the processing

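Of 604 recomputed log2 differences of the 7 genes (25 differences between groups, each under every alternative or without 1 mouse), 559 kept their direction and side of the threshold, 21 lost a call, 13 gained one and 11 changed sign. The median log2 difference of all genes was at most 0.02 in size under every setting. Gabrd in HD against Ctr stayed called in each of 14 alternatives (-1.05 to -0.78) and without each mouse. In HD against Ctr 2 genes were called, Gabra5 added, with the library set as a covariate and with all 30 libraries in one fit (1 to 2 when leaving out a mouse). In HD against LD 1 was called, Gabrd, with a mean of 10 or more as the filter, quantile normalization, limma without trend, edgeR and DESeq2 (1 to 2 when leaving out a mouse). With all 30 libraries in one fit, 0 were called in Se_HD against Se_Ctr and in Se_HD against Se_LD (0 to 1 each when leaving out a mouse). In Se_Ctr against Ctr 2, Gabra4 and Gabra5, were called when only these groups were fitted, and 0 to 1 when leaving out a mouse (Gabra3 without Se_Ctr library 4, Gabra5 without Ctr library 7, Gabrb1 without Ctr library 13). In Se_HD against HD 1, Gabra5, was called with edgeR, and 1 to 3 when leaving out a mouse. Gabrd there was also not called when only these groups were fitted. The interactions gave 0 to 1 call when leaving out a mouse (Gabrd without HD library 9 for the high dose, Gabrb1 without Ctr library 13 for both doses). Of the shares in HD against Ctr 1, Gabra2, had an exact permutation p under 0.05 without division by length or over all subunit genes. Leaving out a mouse gave 0 to 1 share there (Gabrd without HD library 9, Gabrb2 without HD library 15, Gabra2 without Ctr library 13 or 25) and 0 to 2 in Se_HD against Se_Ctr, the 2 being Gabra2 and Gabrd without Se_HD library 30. The sign changed only when leaving out a mouse in Se_HD against Se_Ctr, where no difference that did so was called: Gabra2 -0.0222 to 0.0767, Gabra3 -0.0813 to 0.196, Gabra4 -0.0939 to 0.00521, Gabra5 -0.117 to 0.0232 and Gabrb2 -0.0706 to 0.0221. The causes of these shifts were not tested. Depth limits Gabrd most, with 24 to 205 reads per library, against at least 113 for the other genes. The labels tie no mouse of one group to a mouse of another, so the only blocking tried was by library set.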
